A study of Mus musculus with 6 samples.

Results

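The nuclear genes for subunits of the oxidative phosphorylation (OXPHOS) machinery were examined in muscle stem cells (MuSCs), the cells that regenerate skeletal muscle. Members were the protein-coding genes of the deposited table whose symbol begins with Nduf followed by a, b, c, s or v and a number, with Uqcr, with Cox and a digit from 4 to 8, or with Atp5, together with Sdha, Sdhb, Sdhc and Sdhd. Of 82 such symbols, 81 had a mean over the 6 libraries of at least 5 and were kept, out of 15915 genes that passed this minimum and 22706 genes in the table. Ndufa4l2, with a mean of 4.17, was the gene left out, and Cox4i2 (8.33) and Cox6b2 (9.5) lay just inside the limit. The members fell into complex I (35 genes), complex II (4), complex III (8), complex IV (17) and complex V (17). Ndufa4 was counted under complex IV, where its protein is found, in spite of its symbol. Atp5s and Atp5sl matched by name and were counted under complex V, although their proteins are not subunits of the enzyme.

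RNA-seq libraries came from MuSCs sorted by flow cytometry from 3 groups of mice with 2 libraries each. Control mice were wild type. Mdx mice lack functional dystrophin because of a spontaneous mutation and serve to model Duchenne muscular dystrophy. Sirt6mKO/mdx mice are mdx mice in which the histone deacetylase gene Sirt6 was deleted by the Cre recombinase of Pax7ICN, active in the whole muscle lineage from its Pax7-expressing precursors on. The labels give the strain C57BL/6 for all 6 libraries and give no age, sex or batch, while the methods name a C57BL/10ScSn origin of the mdx mutation, describe the mice as males, and include a ROSA26-YFP reporter in the Sirt6mKO crosses. The methods call the 2 RNA-seq libraries of a group biological replicates, and the labels do not say whether they came from separate or pooled animals, so p-values measure the spread between these libraries.

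Before the members, the labels were checked against the data. The normalized read count of Sirt6 was 41 and 32 in the control libraries, 33 and 40 for mdx and 37 and 30 under the label Sirt6mKO/mdx. The last 2 groups differed by -0.12 ± 0.50 on the log2 scale (SE, adjusted p = 0.91, limma with Benjamini-Hochberg adjustment over all genes tested). The deletion covers exons 4 to 6, which make up 12.5% of the 1891 bases of the principal coding transcript in GENCODE M21, so the values per gene do not check it. Xist, the RNA of the inactive X chromosome, had 16772 and 12950 in the control libraries against 7, 8, 33 and 34 in the others, and Ddx3y on the Y chromosome had 3 and 8 against 1024 to 1767. Sex therefore differed between control and the other groups in these libraries, and for every comparison with control the genotype and the sex of the cells cannot be told apart. Pax7, the defining gene of MuSCs, ranged from 2167 to 3236 without an adjusted p below 0.53 in any comparison. Dmd ranged from 2038 to 2883. Approximate depth was 4397632 to 9745218 reads per library, and the 10 most abundant genes, mainly small noncoding RNAs and Gm26924, took 11.8% to 32.6% of the summed values.

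Oxidative phosphorylation turns the electrons of NADH and succinate into a proton gradient and then into ATP. Complex I (NADH dehydrogenase) and complex II (succinate dehydrogenase) feed electrons to coenzyme Q, complex III passes them to cytochrome c, complex IV (cytochrome c oxidase) hands them to oxygen, and complex V (ATP synthase) lets protons flow back. Most subunits are encoded in the nucleus, and a small core of each complex but complex II is encoded in mitochondrial DNA. Genes of mitochondrial DNA were not analysed here. Quiescent MuSCs are known for small, sparse mitochondria, and mitochondrial content increases when they activate.

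The promoters of the members were read first, since they are a feature that the choice of genes by name did not use. RefSeq windows from 250 bases before to 50 bases after the start (build GRCm38.p6) were found for 68 of the 81 members, 74 windows in all. They were searched on both strands for 4 motifs of factors known to act on OXPHOS genes: GCGCATGC, a core of the nuclear respiratory factor 1 (NRF1) site; CCGGAAG, bound by ETS factors including GABP; AAGATGGCG of YY1; and AAGGTCA of the oestrogen-related receptors (ERR). At least 1 of these was present in 44.6% of the member windows, in 24.6% of 13623 windows of tested protein-coding genes and in 16.4% of all 32851 windows. The NRF1 core was found in 13.5% of member windows (4.87% of tested coding windows, 2.71% of all windows), the ETS motif in 21.6% (16.1% and 8.86%), the YY1 motif in 12.2% (2.75% and 1.4%) and the ERR motif in 10.8% (3.19% and 4.72%). NRF1 sites can overlap themselves on opposite strands, and such overlaps were counted once for a window. A match of letters is a description and not a bound site.

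Of the 17 members called in any comparison below, 14 had a window and 7 of these held a motif. The stretches before the RefSeq start of 3 of them are shown, because they carry a motif within 100 bases of a start that lies close to that of the deposited gene model. Motifs are in capitals, and each sequence runs 5′ to 3′ on the minus strand, which is the strand of the gene. Cox6b1 lies at chr7:30626115-30626214 with the ETS motif on its opposite strand at positions -28 to -22 from the start, Ndufb4 at chr16:37654369-37654468 with the ERR motif at -55 to -49, and Uqcrh at chr4:116075071-116075170 with the ETS motif on the opposite strand at -10 to -4. The gene models of the deposited table begin 37, 85 and 1 bases upstream of these starts, respectively.
Cox6b1: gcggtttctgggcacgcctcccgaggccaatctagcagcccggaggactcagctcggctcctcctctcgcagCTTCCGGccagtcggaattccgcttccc
Ndufb4: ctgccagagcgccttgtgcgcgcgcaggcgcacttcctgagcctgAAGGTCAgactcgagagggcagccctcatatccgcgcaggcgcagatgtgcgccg
Uqcrh: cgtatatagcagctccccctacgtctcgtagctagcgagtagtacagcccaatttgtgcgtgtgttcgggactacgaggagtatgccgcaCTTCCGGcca

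Most OXPHOS subunit genes had higher values in mdx than in control MuSCs. Of the 81 members, 71 (87.7%) had a log2 fold change above 0, against 50.1% of all genes tested, and the median was 0.57 (1.49-fold) against 0.00. A gene was called when its adjusted p was at most 0.05 and its change at least 2-fold. By this rule 11 members rose (13.6%) and 0 fell, where 6.89% of all genes rose and 7.34% fell. At an adjusted p of at most 0.05 and any fold, 14 members (17.3%) were higher and 0 lower, against 8.17% and 8.48% of all genes. At an unadjusted p below 0.05 there were 36 members (44.4%), against 31.0% of all genes. The 11 calls became 2 with no minimum mean and 2 when all genes shared 1 prior variance. Both mdx libraries lay above both control libraries for 53 members (65.4%) and below them for 5 (6.17%), against 28.7% and 28.3% of all genes. In bulk RNA a larger amount per cell and a larger share of cells with more of it cannot be told apart.

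**Figure D1:**
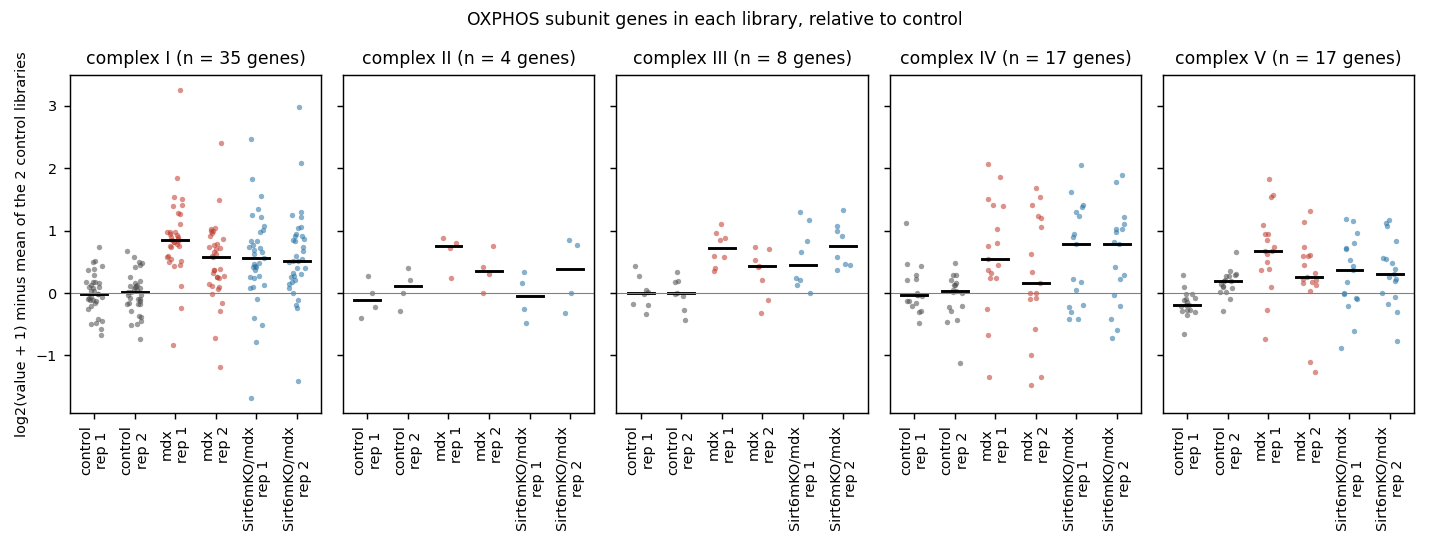
Each point is a member, placed by its log2(value + 1) minus the mean of the 2 control libraries (vertical axis) in each of the 6 libraries (horizontal axis), with a panel for each complex and a bar at the median. The medians of mdx replicate 1 lie above those of both control libraries in every complex, those of mdx replicate 2 lie lower than those of replicate 1, and complex II of Sirt6mKO/mdx replicate 1 lies near the control level.

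The mdx libraries differed from each other as well. Mdx replicate 1 held the highest value of the 6 libraries for 42 members and mdx replicate 2 for 4. Within mdx, 71 members were higher in replicate 1 and 9 in replicate 2, with a median log2 difference of 0.37 where all genes had 0.02. Without mdx replicate 1, 4 members were called higher and the median was 0.37. Without mdx replicate 2 the median was 0.80, and without control replicate 2 the number of calls was 17. In control 30 members were higher in replicate 1 and 50 in replicate 2. Of 15 myofibre genes, which mark muscle fibres, 14 had a higher level in mdx replicate 1 than in replicate 2, and their summed level was 18748 and 14192. The exception was Ttn, the most abundant of them, with 10304 and 10891. All 8 markers of fibro-adipogenic cells were higher in mdx replicate 1 too, among them Pdgfra (195 against 18), Lum (315 against 64) and Ly6a (79 against 21). The part of these markers in the difference between the mdx libraries was not tested.

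Complex I, which takes electrons from NADH, had a median log2 fold change of 0.71 in mdx against control. Of its 35 members 4 were called higher (11.4%, against 6.89% of all genes). For 26 (74.3%, against 28.7%) both mdx libraries lay above both control libraries. Ndufv2, the iron-sulfur subunit beside the NADH site, had 175 and 153 normalized read counts in control against 587 and 462 in mdx. These groups did not overlap, and the gene rose by 1.66 ± 0.27 on the log2 scale (SE, adjusted p = 0.00079, limma). Ndufs8, an iron-sulfur subunit that leads electrons towards coenzyme Q, had 160 and 229 in control against 561 and 330 in mdx (1.16 ± 0.32, adjusted p = 0.021, limma). The accessory subunit Ndufb4 had the highest fold change of all members, 2.83 ± 0.59 (adjusted p = 0.0047, limma), but rested on low values of 9 and 5 in control against 73 and 40 in mdx, and 40.2% of its transcript had near-identical copies elsewhere in the genome. The accessory subunit Ndufa5 was called as well, with 71 and 83 in control against 207 and 151 in mdx. Ndufb9 and Ndufs4, which encodes a subunit needed late in the assembly of complex I, passed the adjusted p with changes under 2-fold (0.84 ± 0.26 and 0.90 ± 0.29). The calls of Ndufs8 and Ndufa5 were lost without control replicate 1 and without mdx replicate 1, and that of Ndufb4 without mdx replicate 1.

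The 7 core subunits of complex I that carry its electron path had a median of 0.56 and the 28 accessory subunits one of 0.77. Not every core gene was higher. Ndufv1, which binds NADH, had 361 and 432 in control against 427 and 354 in mdx, so the groups overlapped (-0.02 ± 0.25). Ndufs1 had 403 and 437 against 612 and 624 (0.56 ± 0.24, adjusted p = 0.13, limma) and was separated between the groups without passing the adjusted p. Among members of complex I with a mean of at least 50, Ndufb2 had the lowest fold change (-0.48 ± 0.31), with 184 and 154 in control against 142 and 102 in mdx. Ndufa6, the most abundant transcript of complex I, spread more within its groups than between them, with 970 and 479 in control against 935 and 561 in mdx.

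Complex II has 4 subunits, all encoded in the nucleus, and is also an enzyme of the tricarboxylic acid (TCA) cycle. None of the 4 was called between mdx and control by limma, and 1 had an unadjusted p below 0.05 (25%, against 31.0% of all genes). Sdhd, a membrane anchor, had 193 and 194 in control against 337 and 327 in mdx (0.78 ± 0.26, adjusted p = 0.057, limma). Sdhb, the iron-sulfur subunit, had 263 and 355 against 506 and 379, and Sdhc, the other anchor, 285 and 193 against 432 and 312. In these 3 genes the mdx libraries lay above the control libraries. Sdha, the flavoprotein that oxidizes succinate, overlapped between the groups, with 770 and 1348 in control against 1199 and 1016 in mdx (0.12 ± 0.28).

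In complex III, which oxidizes coenzyme Q, all 8 members had a log2 fold change above 0 with a median of 0.58, and none was called by limma. The number with an unadjusted p below 0.05 was 3 (37.5%, against 31.0% of all genes). Uqcrfs1, the Rieske iron-sulfur protein, had 190 and 245 in control against 388 and 360 in mdx (0.79 ± 0.26, adjusted p = 0.054, limma). The core proteins Uqcrc1 (252 and 405 against 587 and 519) and Uqcrc2 (455 and 598 against 1018 and 707) were likewise higher in both mdx libraries, with adjusted p-values of 0.062 and 0.083 by limma. Uqcrh, a hinge protein next to cytochrome c and the most abundant transcript of the complex, overlapped between control (1295 and 706) and mdx (1437 and 890). Uqcr11 had the lowest fold change of the complex, 0.02 ± 0.29.

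Complex IV, which reduces oxygen, had a median of 0.38. Of its 17 members 5 were called higher (29.4%, against 6.89% of all genes) and 5 were below 0. Cox7b, a small subunit encoded on the X chromosome, had 125 and 157 normalized read counts in control against 593 and 452 in mdx. It rose by 1.88 ± 0.26 on the log2 scale (adjusted p = 0.00019, limma) and kept its call under each of 18 alternative settings. Ndufa4 had 112 and 83 in control against 354 and 281 in mdx (1.70 ± 0.29, adjusted p = 0.0012, limma), and Cox6c 183 and 218 against 530 and 469 (1.31 ± 0.26, adjusted p = 0.0031, limma). Cox5a, at the matrix side of the enzyme, had 35 and 42 against 111 and 90 (1.36 ± 0.40, adjusted p = 0.029, limma) and Cox6b1, which faces the intermembrane space, 139 and 146 against 376 and 298 (1.23 ± 0.27, adjusted p = 0.0058, limma). In each of the 5 genes both mdx libraries lay above both control libraries. The call of Cox5a was lost when control replicate 1 or any library of mdx or Sirt6mKO/mdx was left out, and those of Cox6b1 and Cox6c were lost without mdx replicate 1. Cox4i1, the most abundant transcript of the complex, had 1134 and 823 against 1324 and 1224 and did not pass the test (0.40 ± 0.26, adjusted p = 0.31, limma).

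In complex V 2 of 17 members were called (11.8%, against 6.89% of all genes). They belong to the rotor and the stalk of the enzyme, and its catalytic head held none. Atp5c1, the gamma subunit that turns inside the head, had 529 and 693 in control against 1768 and 1340 in mdx (1.34 ± 0.27, adjusted p = 0.0031, limma). Atp5j, subunit F6 of the peripheral stalk, had 192 and 218 against 727 and 511 (1.57 ± 0.26, adjusted p = 0.00078, limma). Atp5j2, subunit f of the membrane part, passed the adjusted p with a log2 fold change of 0.84 ± 0.26. Atp5b, the catalytic beta subunit and the most abundant transcript among all members by normalized read count, overlapped with 2755 and 4457 against 4536 and 4368 (0.34 ± 0.33). Atp5a1, the alpha subunit, was higher in both mdx libraries (3949 and 3586 against 1930 and 2891) and did not pass the test (0.67 ± 0.30, adjusted p = 0.14, limma). The call of Atp5c1 was lost without mdx replicate 1. The difference between Atp5c1 or Atp5j and the head subunits was not tested.

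**Figure D2:**
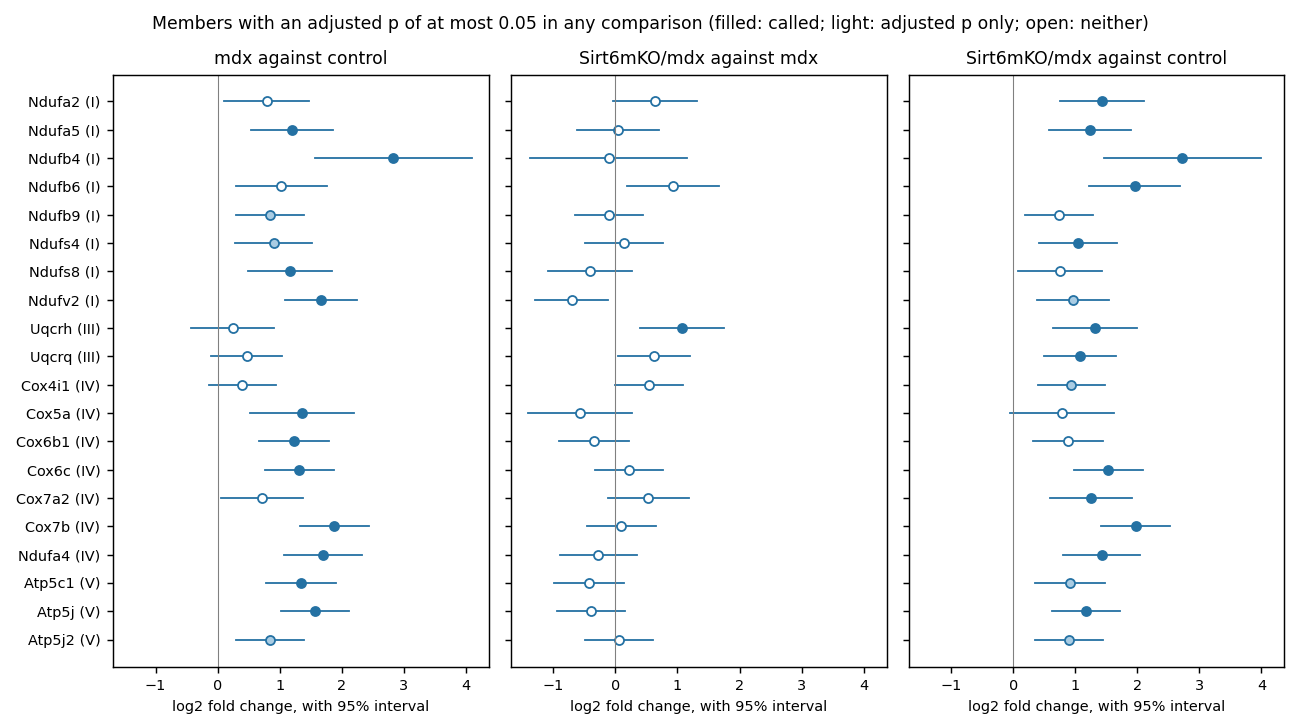
Log2 fold changes (horizontal axis) with 95% intervals for the 20 members with an adjusted p of at most 0.05 in any comparison, with a panel for each comparison and the complex in parentheses. Filled points were called, light points passed the adjusted p only, and open points passed neither; Ndufb4 has the highest values against control (2.83 and 2.73), and in the middle panel Uqcrh is the only filled point.

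Several subunits have isoforms that differ between tissues, and levels per kb of transcript were used to compare them. Cox4i1, the general form, had 1076 to 2488 normalized read counts per kb, and Cox4i2, a form known from lung, 4.09 to 16.4. Cox6a1 had 592 to 1165 per kb and the heart and muscle form Cox6a2 17.6 to 57.4. Cox7a2 had 185 to 672 per kb and the heart and muscle form Cox7a1 25.4 to 130. Cox8a had 844 to 1224 per kb and Cox8b, also a heart and muscle form, 27.8 to 197. In every library the general form stood above the tissue form. Cox6b1 exceeded Cox6b2, known from testis, with 225 to 608 per kb against 12.0 to 18.8. Among the 3 genes for the c ring of ATP synthase, Atp5g3 led with 643 to 1030.4 per kb, followed by Atp5g2 with 68.4 to 111 and Atp5g1 with 11.2 to 29.7. The last order rests on an annotated transcript of 4715 bases for Atp5g1 against 731 for Atp5g2. Without division by length Atp5g1 was the higher of these in control and Atp5g2 the higher in mdx. In Sirt6mKO/mdx Atp5g1 had 62 and 67 and Atp5g2 62 and 50. Of the transcript of Atp5g2, 88.2% had near-identical copies elsewhere, so reads from it may have been lost.

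**Figure D3:**
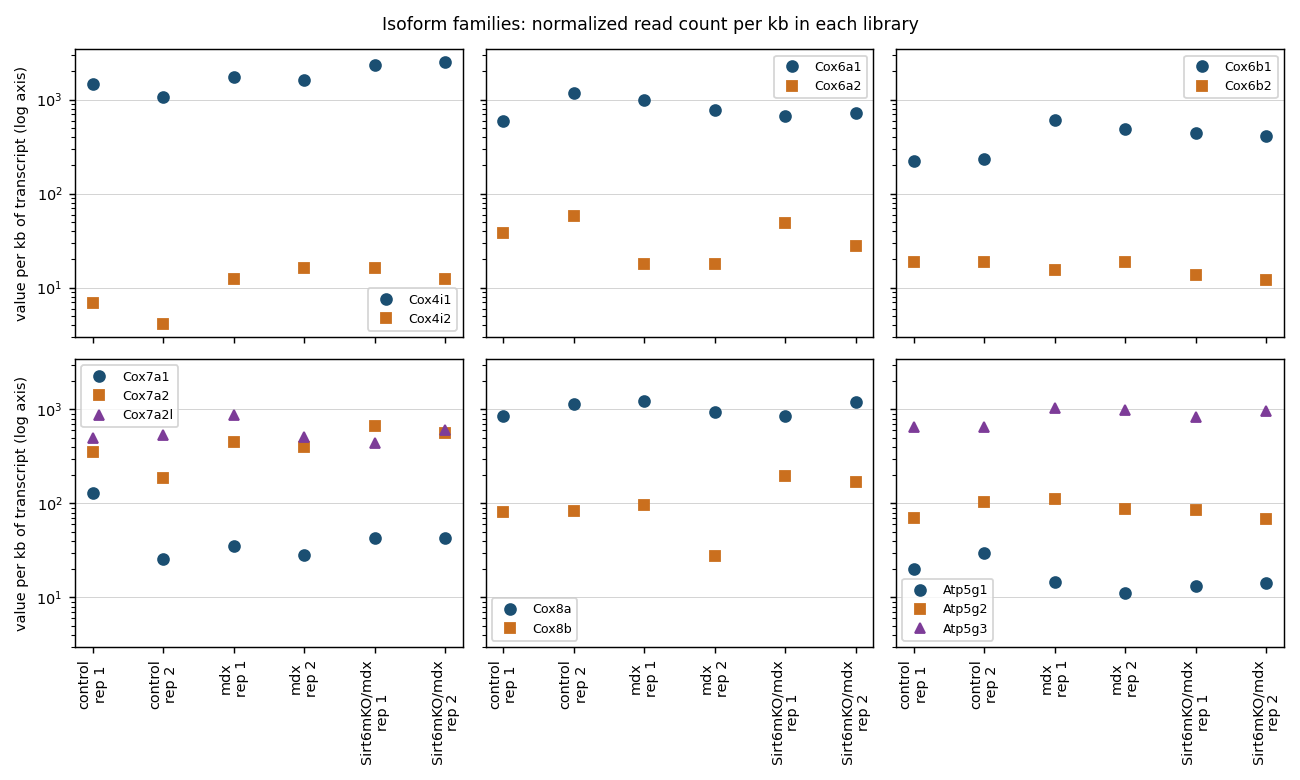
Normalized read count per kb of transcript (vertical log axis) of the members of 6 isoform families in each library (horizontal axis). The general forms (Cox4i1, Cox6a1, Cox6b1, Cox7a2, Cox8a) lie above the heart and muscle, lung and testis forms in all 6 libraries, and Atp5g3 lies above Atp5g2 and Atp5g1.

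The heart and muscle forms were at low levels, and all 3 had their lowest mean in mdx. Cox6a2 had 26 and 39 normalized read counts in control, 12 and 12 in mdx, then 33 and 19 in Sirt6mKO/mdx (-1.34 ± 0.62 for mdx against control, adjusted p = 0.16, and adjusted p = 0.34 for Sirt6mKO/mdx against mdx, limma). Cox8b had 29 and 30, 35 and 10, and 71 and 61, with a difference of 1.75 ± 0.59 between the last 2 groups (adjusted p = 0.080, limma). Cox7a1 had 51 and 10 in control, so its replicates spread over the whole range of the other libraries. No change of these 3 genes passed the test. Of 15 myofibre markers, 14 were below 0 in mdx against control (median -1.24) and 7 were called lower, against 7.34% of all genes. In Sirt6mKO/mdx against mdx all 15 were above 0 (median 1.20) and 7 were called higher, against 5.62% of all genes. The summed levels of these markers were 24818 and 49898 in control, 18748 and 14192 in mdx, then 42072 and 29757 in Sirt6mKO/mdx, with no marker at 0 in any library. Their part in the values of Cox6a2, Cox7a1 and Cox8b was not tested. Atp5g1, which was lower in both mdx libraries (69 and 53) than in control (95 and 140), did not pass the test either (-0.92 ± 0.38, adjusted p = 0.12, limma).

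The Sirt6mKO/mdx libraries were compared with mdx. Besides the deletion of Sirt6, mice of the Sirt6mKO crosses carry Cre and the ROSA26-YFP reporter. The methods sort MuSCs either by surface proteins or by a fluorescent reporter, and do not say which was used for a group. The parts of the deletion, Cre, the reporter and the sort in this comparison cannot be told apart. Across the 81 members the median log2 fold change was -0.08, with 33 above 0 and 47 below, where all genes had a median of 0.02. This median changed sign without mdx replicate 1 (0.13). Only Uqcrh was called, and it rose, which is 1.23% of the members against 5.62% of all genes called higher; 0 members were called lower against 2.54% of all genes. When the libraries were scaled to the same total, 21 members were called lower, 7 of 81 lay above 0 and the median was -0.71. That scaling moved the median of all genes to -0.58, so relative to all genes the members stood at -0.125. The share of all genes called lower at the same total is not given here, so the 21 calls are not set apart from those of other genes. At any fold and under the deposited scaling the adjusted p gave the same 1 and 0 members, against 5.94% and 3.21% of all genes. An unadjusted p below 0.05 was found for 13 members (16.0%), against 25.2% of all genes. Both Sirt6mKO/mdx libraries lay above both mdx libraries for 14 members (17.3%, against 28.8% of all genes) and below them for 25 (30.9%, against 27.2%).

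Uqcrh had 2362 and 2405 in Sirt6mKO/mdx against 1437 and 890 in mdx (1.07 ± 0.31, adjusted p = 0.045, limma). Its call was lost without either mdx or either Sirt6mKO/mdx library, with log2 fold changes of 0.73 to 1.42. It was also lost when fold changes were centred on genes of like transcript length (0.78) and when all libraries were scaled to the same total (0.45). With 547 bases, its transcript is among the shorter ones. Other complexes had no called member. Ndufb7 had 51 and 78 against 133 and 152 in mdx (-1.16 ± 0.37, adjusted p = 0.060, limma), and Ndufa10 139 and 266 against 474 and 395 (-1.17 ± 0.39, adjusted p = 0.077, limma). Both Sirt6mKO/mdx libraries lay below both mdx libraries in these 2 genes.

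By complex, the medians of Sirt6mKO/mdx against mdx were -0.07 (I), -0.37 (II), 0.08 (III), 0.00 (IV) and -0.22 (V). All 4 genes of complex II were below 0. Sdhb had 255 and 307 against 506 and 379 (-0.64 ± 0.27, adjusted p = 0.15, limma), and Sdha 734 and 814 against 1199 and 1016 (-0.51 ± 0.28, adjusted p = 0.27, limma). In complex V, 13 of 17 were below 0, among them Atp5b (2309 and 3371 against 4536 and 4368) and Atp5a1 (2332 and 2919 against 3949 and 3586). For Atp5b and Atp5a1 the groups did not overlap, but neither passed the test (adjusted p = 0.22 and 0.29, limma). Atp5o, the stalk subunit known as OSCP, had the lowest fold change of complex V (-0.74 ± 0.27, adjusted p = 0.094, limma). Its value is uncertain, since 76.7% of its transcript had near-identical copies. Of its exonic bases 47.9% overlapped other gene models, including a model with the same symbol.

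The Sirt6mKO/mdx libraries were also compared with control, which shares its control libraries with the mdx comparison. The median log2 fold change was 0.50 (1.42-fold), with 65 members (80.2%) above 0 against 50.4% of all genes, but it changed sign to -0.10 when the libraries were scaled to the same total. That scaling moved the median of all genes to -0.58, so that relative to all genes the members stood 0.48 higher. Of the members 12 were called higher (14.8%) and 0 lower, against 5.19% and 2.68% of all genes, and at any fold 16 (19.8%) and 0 passed the adjusted p, against 5.62% and 3.29%. An unadjusted p below 0.05 was found for 29 members (35.8%), against 24.1% of all genes. With no minimum mean or with 1 prior variance for all genes there were 0 calls. Both Sirt6mKO/mdx libraries lay above both control libraries for 45 members (55.6%, against 26.3% of all genes) and below them for 3 (3.7%, against 25.3%). Without Sirt6mKO/mdx replicate 2 there was 1 call, without Sirt6mKO/mdx replicate 1 there were 3 and without control replicate 2 there were 4.

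Among the called genes, Cox7b had 582 and 525 in Sirt6mKO/mdx against 125 and 157 in control (1.97 ± 0.26, adjusted p = 0.00025, limma), and Cox6c 491 and 685 against 183 and 218 (1.53 ± 0.26, adjusted p = 0.0019, limma). Ndufb6, an accessory subunit of complex I, had 201 and 240 against 53 and 59 (1.96 ± 0.35, adjusted p = 0.0026, limma), and 39.0% of its exonic bases overlapped another gene. Cox7b, Ndufb6 and Ndufb4 had values in Sirt6mKO/mdx that were at least 3 times those of any control library. Ndufa4 had 299 and 227 (1.43 ± 0.29), Ndufb4 42 and 60 (2.73 ± 0.59), Ndufa5 180 and 184 (1.23 ± 0.31) and Atp5j 467 and 460 (1.18 ± 0.26). Ndufa2 and Ndufs4 of complex I, Uqcrh and Uqcrq of complex III and Cox7a2 of complex IV made up the rest, with log2 fold changes of 1.04 to 1.43. Cox4i1, with 1801 and 1903 against 1134 and 823, passed the adjusted p under 2-fold (0.94 ± 0.26, adjusted p = 0.033, limma), as did Ndufv2, Atp5c1 and Atp5j2. With libraries scaled to the same total Cox7b, Ndufb6 and Ndufb4 kept their calls and the other 9 were lost. Length centring lost those of Ndufa5, Atp5j, Ndufs4, Uqcrq and Cox7a2. On leaving out single libraries Cox7b kept its call each time, Cox6c and Ndufb6 lost it without Sirt6mKO/mdx replicate 2, and the other 9 lost it when either Sirt6mKO/mdx library was left out. Ndufs4 lost it without any 1 of the 6 libraries.

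The complexes were set side by side over both comparisons with control. For complex II the median log2 fold change was 0.58 in mdx against control and 0.19 in Sirt6mKO/mdx against control. For complex V the values were 0.52 and 0.36, for complex I 0.71 and 0.56, for complex III 0.58 and 0.61, and for complex IV 0.38 and 0.79. Whether complexes differed from each other was not tested. Summed over members, the normalized read counts were 23467 and 26950 in control, 40905 and 32694 in mdx, then 31306 and 35522 in Sirt6mKO/mdx. As a share of all summed values they were 0.353% and 0.484%, 0.641% and 0.583%, and 0.325% and 0.400%, so the Sirt6mKO/mdx libraries lay above control in the first measure and overlapped it in the second. Without the 10 most abundant genes of each library the shares were 0.451% and 0.549%, 0.830% and 0.756%, and 0.483% and 0.572%. With 2 libraries in each group an exact two-sided permutation test of such a sum cannot go below p = 0.333.

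**Figure D4:**
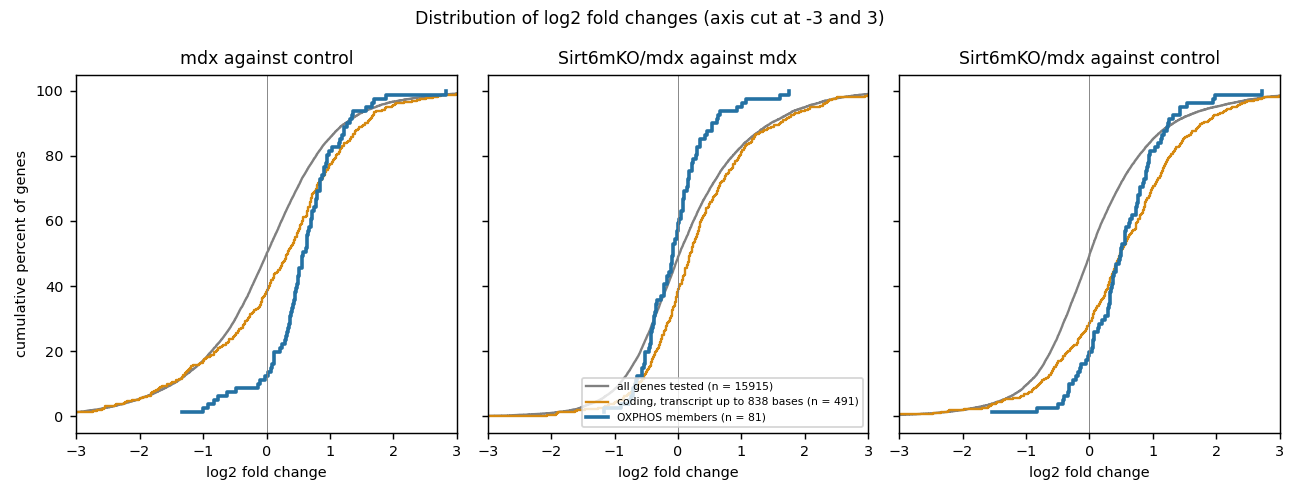
Cumulative percent of genes (vertical axis) against log2 fold change (horizontal axis, drawn from -3 to 3) for the 81 members, all 15915 genes tested and 491 tested coding genes with a transcript of up to 838 bases. In mdx against control the members' curve lies to the right of both others around its median of 0.57, while in Sirt6mKO/mdx against control it runs close to that of the short coding genes, whose median is 0.48.

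OXPHOS transcripts are short, with a median length of 838 bases for the members against 2765 for all genes tested, while GC content was close (51.6% against 50.4%). Length was therefore followed through each comparison. In mdx against control, 491 coding genes of up to 838 bases had a median log2 fold change of 0.34 and the 41 members of up to that length one of 0.57, and the 40 longer members had 0.59 where longer coding genes had 0.03. In Sirt6mKO/mdx against control the short coding genes had 0.48 and the short members 0.56, and the longer members 0.40 where longer coding genes had -0.03. In Sirt6mKO/mdx against mdx the short coding genes had 0.20 and the short members -0.08. The members are themselves among these coding genes. Across the 81 members Spearman's rho of fold change with length was 0.09, -0.23 and -0.15 in mdx against control, Sirt6mKO/mdx against mdx and Sirt6mKO/mdx against control, and across 15750 genes it was -0.05, -0.20 and -0.24. These points share their libraries and are a description. When fold changes were centred on genes of like length, the median of the members was 0.60, -0.29 and 0.23, and 7 members in place of 12 were called between Sirt6mKO/mdx and control.

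**Figure D5:**
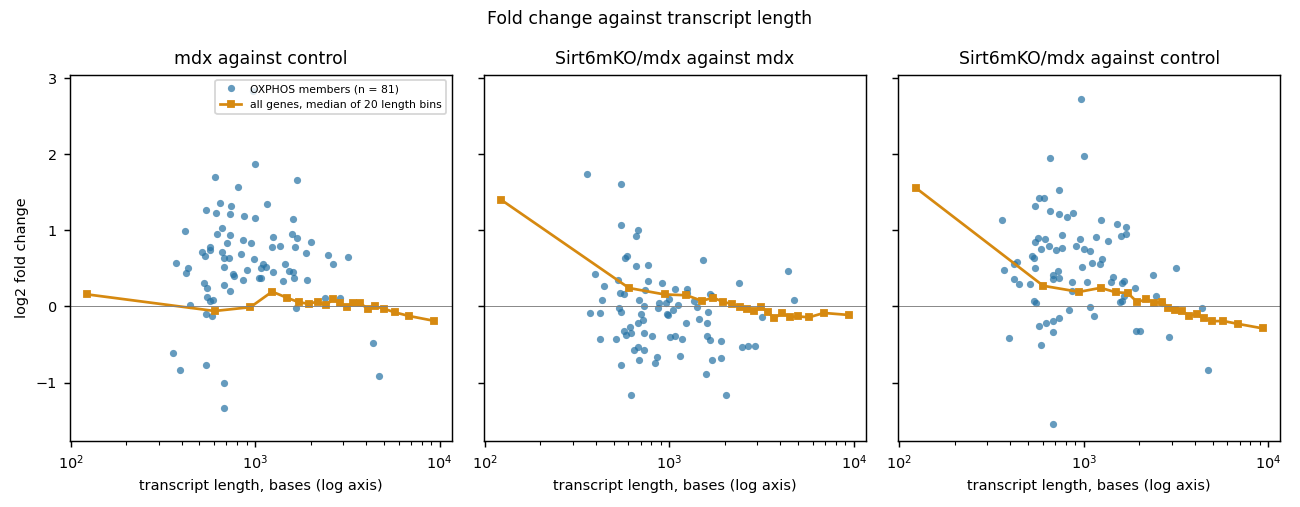
Log2 fold change (vertical axis) against transcript length in bases (horizontal log axis) for the 81 members (points), with the medians of all genes in 20 bins of length (line). In mdx against control most members lie above the flat line of all genes, with 10 of 81 below 0, while in Sirt6mKO/mdx against control the line itself is higher at short lengths.

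The 3 members on the X chromosome were followed because sex differed between control and the other groups. Cox7b is described above. Ndufa1, an accessory subunit of complex I, had 62 and 59 in control, 120 and 122 in mdx, then 101 and 80 in Sirt6mKO/mdx (0.99 ± 0.35 for mdx against control, adjusted p = 0.067, limma). Ndufb11 had 331 and 263, 553 and 309, and 467 and 560 (0.49 ± 0.29, adjusted p = 0.28, limma). The libraries high in Xist thus had the lower values of Cox7b and Ndufa1, and the part of sex in these values cannot be told apart from that of the genotype.

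Genes around the complexes, from fixed lists, were compared beside the members. Of 6 further nuclear genes whose symbols escape the pattern, 4 encode subunits, Atpif1 the inhibitor of ATP synthase and Cox14 an assembly factor of complex IV. Among them 2010107E04Rik, a small subunit of ATP synthase, had 128 and 133 in control, 508 and 422 in mdx, then 563 and 642 in Sirt6mKO/mdx. It rose against control in both (1.82 ± 0.25, adjusted p = 0.00018, and 2.20 ± 0.25, adjusted p = 7.3e-05, limma). Usmg5, also a subunit of ATP synthase, was called in Sirt6mKO/mdx against control (1.62 ± 0.40, adjusted p = 0.022, limma), and the median of the 6 was 0.68 in mdx and 0.86 in Sirt6mKO/mdx against control. Of 35 tested assembly factors, 4 rose in mdx against control, where 6.89% of all genes were called higher, and 0 fell (median 0.34). The 4 were Ndufaf4 of complex I, Uqcc2 of complex III, Coa5 of complex IV and Tmem70 of complex V. In Sirt6mKO/mdx against mdx 25 of the 35 were below 0 (median -0.29), as were 7765 of all 15915 genes, and none of the 35 was called by limma. Coa5 was the 1 assembly factor called higher in Sirt6mKO/mdx against control. Of 10 mobile carriers and adenine translocases none was called in any comparison by limma. Cytochrome c (Cycs) had 103 and 141 in control, 93 and 77 in mdx, then 91 and 106 in Sirt6mKO/mdx.

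Of 18 enzymes of the TCA cycle and pyruvate oxidation, 15 were above 0 in mdx against control (median 0.38) and 1 was called, Dld, the dehydrogenase subunit shared by several oxidizing complexes (1.34 ± 0.29, adjusted p = 0.0059, limma). Of all genes 6.89% were called higher there. In Sirt6mKO/mdx against mdx 17 of 18 were below 0 (median -0.49) and Idh3a, a subunit of isocitrate dehydrogenase, fell (480 and 465 in mdx, 184 and 283 in Sirt6mKO/mdx, adjusted p = 0.046, limma). The median of all genes in that comparison was 0.02. With libraries scaled to the same total the median of the 18 enzymes was -1.11 and that of all genes -0.58, so relative to all genes the enzymes stood at -0.51 under the deposited scaling and -0.53 under this one. Of 17 glycolysis enzymes, 14 were below 0 in mdx against control (median -0.48) and 2 were called lower, Hk2 (434 and 601 against 52 and 62) and Pfkp (884 and 845 against 247 and 344). Of all genes 7.34% were called lower in that comparison. Hk2 was called higher (667 and 421) and Hk1 lower (300 and 279 against 471 and 727) in Sirt6mKO/mdx against mdx. Hk1, Gapdh and Pgam1 were called lower in Sirt6mKO/mdx against control.

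Regulators of mitochondrial biogenesis and of mitochondrial DNA had no common direction, with a median of -0.06 over 21 genes in mdx against control. Pprc1, a coactivator related to PGC-1alpha, fell in mdx (746 and 723 in control, 193 and 270 in mdx), as did Polg2, an accessory subunit of the mitochondrial DNA polymerase (631 and 204 against 92 and 162). Slirp, which binds mitochondrial mRNA, rose (65 and 26 against 111 and 114, adjusted p = 0.030, limma). Pprc1, Polg2 and Sirt1 were called higher and Lrpprc lower in Sirt6mKO/mdx against mdx, and in Sirt6mKO/mdx against control Slirp was called higher and Peo1 lower. Nrf1, Esrra and Gabpa, whose products bind the promoter motifs searched above, were not called in any comparison by limma. Of 13 genes of coenzyme Q synthesis, Coq10b and Adck4 fell in mdx against control, and these and Adck3 rose in Sirt6mKO/mdx against mdx. Of all genes 7.34% were called lower in the first comparison and 5.62% higher in the second. Coq10b had 828 and 719 in control, 124 and 107 in mdx, then 873 and 912 in Sirt6mKO/mdx.

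Programs that mark the state of the cells also differed between the groups. Immediate early genes, which respond within minutes to stress and to tissue dissociation, fell in mdx against control in 21 of 22 cases (median -2.68) and rose in 21 of 22 in Sirt6mKO/mdx against mdx (median 2.37). Of 20 genes of S and G2/M phase 7 rose in mdx against control (median 1.26) and 5 fell in Sirt6mKO/mdx against mdx (median -0.66). Against control, 2 of the immediate early genes fell and 1 of the genes of S and G2/M phase rose in Sirt6mKO/mdx. Of 11 MuSC markers only Sdc4 was called, lower in mdx and in Sirt6mKO/mdx than in control and higher in Sirt6mKO/mdx than in mdx. Of 8 fibro-adipogenic markers Ly6a and Col1a1 rose in mdx against control. Their summed level was 20852 to 27570 for control, 31976 to 39050 for mdx and 21343 to 28825 for Sirt6mKO/mdx. Most of each sum was Col3a1, with 16458 and 22798, 30817 and 26928, and 15579 and 24533 in these groups. In the same order the sums were 801 to 910, 420 to 426 and 619 to 628 for 6 endothelial markers, of which Pecam1 and Kdr fell in mdx, and 107 to 133, 83 to 112 and 191 to 192 for 7 macrophage and leukocyte markers. They were 19 to 56, 7 to 14 and 39 to 91 for 5 erythroid markers, 27 to 32, 35 to 50 and 14 to 25 for 4 Schwann markers, and 923 to 1798, 2450 to 3042 and 1252 to 1744 for 4 smooth muscle and pericyte markers. Tek made up most of the endothelial sum and Acta2 most of the smooth muscle and pericyte sum. Single markers called besides were Cd68 (lower) and Lyz2 and Acta2 (higher) in mdx against control, Hbb-bs (higher) and Col1a1 (lower) in Sirt6mKO/mdx against mdx, and Lyz2 (higher) in Sirt6mKO/mdx against control. At least 1 library had a value of 0 for 2 endothelial, 5 macrophage and leukocyte, 2 erythroid and 2 Schwann markers. The methods describe a depletion of cells positive for Sca1 (the product of Ly6a), CD45 or CD31 (the product of Pecam1) before the sort. The part of these programs and cell types in the OXPHOS values was not tested.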

How the data were processed

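Per the labels and methods, total RNA of sorted MuSCs was depleted of ribosomal RNA and sequenced as Ion Total RNA-Seq libraries. Reads were trimmed (Reaper), aligned to GRCm38 (STAR 2.4.2a) and counted per gene by the authors with featureCounts 1.4.5-p1, excluding reads that fit several places or genes; the use of strand is not given in the sources used here. Versions are those of the submitters' processing notes, and the methods name other versions of STAR and DESeq2. The deposited values are whole-number scores. The authors divided read counts by the size factors of DESeq2 1.6.0 and rounded the result. No count model was applied. Size factors (0.537 to 1.527) were recovered from the pattern of skipped integers and gave the approximate reads.

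Genes with a mean of at least 5 were fitted with limma 3.58.1 in R 4.3.3 on log2(value + 1), with a variance trend and all 6 libraries in one fit. P-values are two-sided and adjusted by Benjamini-Hochberg over 15915 genes. Fold changes on this scale understate those of low genes. On simulated data for mdx against control (15915 genes), 140 of 200 changed genes were recovered (15% at 2-fold, 87.7% at 4-fold and 100% at 8-fold), with 4 of 144 calls false. Transcript length and GC content came from the principal coding transcript of GENCODE M21, which held 98.5% of identifiers; values per kb used this length. Near-identical copies were found with BLAST 2.17.0 (at least 97% identity over 100 bases). Named members were those passing the adjusted p (the 10 largest in each direction), isoform families, core subunits, the most abundant and the extreme members of each complex and those on the X chromosome, except 1 core subunit that is not reported here; Ndufs8, Ndufb7, Ndufs4, Ndufb9, Atp5j2, Uqcrq and the genes of other lists were named after their values were seen. The members and lists were chosen with earlier results of these data known. There were 19 alternative settings.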

Additional observations from a re-analysis of the deposited data

How the results depend on the processing

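The number of members called higher in mdx against control (11) became 2 with no minimum mean and 2 with 1 prior variance for all genes, and ranged from 4 to 17 when each library was left out. The median of 0.57 ranged from 0.37 to 0.80 on leaving out libraries. In Sirt6mKO/mdx against mdx the 1 call became 0 with a pseudocount of 0.1, with no minimum mean, at the same total, with length centring and with 1 prior variance, and 0 to 1 on leaving out libraries. The 0 calls lower became 1 with a minimum mean of 50, length centring, GC centring, a robust prior or the replicate block. They became 2 with the 2 groups alone. At the same total they became 21, where the median of all genes was -0.58 and the share of all genes called lower is not given here. The median of -0.08 became -0.71 at the same total and -0.29 with length centring, and ranged from -0.26 to 0.13 on leaving out libraries. In Sirt6mKO/mdx against control the 12 calls higher became 0 with no minimum mean and with 1 prior variance, 3 at the same total, 7 with length centring, and 1 to 13 on leaving out libraries. The 0 calls lower became 3 at the same total, where the median of all genes was -0.58. The median of 0.50 became -0.10 at the same total and 0.23 with length centring. With no minimum mean the degrees of freedom of the prior dropped to 1.81, from 12.06. The cause of these shifts was not tested. On simulated data with 200 of 15915 genes changed, 15% of 2-fold changes were recovered. A call there needed an estimated change of at least 2-fold, which also lowers this share. Fewer genes changed there than were called in these data, so the share may not hold for them.

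Deviations of libraries with the same number correlated at -0.13, 0.12 and 0.01 between the groups. With 2 libraries in each group these correlations cannot decide whether the numbers pair the libraries, and the labels name no pairing. With the replicate block 12, 1 and 12 members were called higher in mdx against control, Sirt6mKO/mdx against mdx and Sirt6mKO/mdx against control.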
